A study of Mus musculus with 26 samples.

Results

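Ribosome-bound messenger RNA from D2 dopamine receptor neurons of mouse dorsal striatum was compared between mice that had given themselves cocaine and mice that had given themselves saline, in each case after withdrawal. The comparison takes 14 of the study's 26 libraries, chosen by sample title: 9 immunopurified libraries titled as the nonescalating cocaine group after withdrawal and 5 titled as saline self-administration after withdrawal. The infusions were intravenous and the sessions were of the long-access kind. All groups were adult mice of the Drd2-TRAP line CP101, in which the Drd2 promoter drives the ribosomal protein Rpl10a fused to EGFP, and their strain is given as FVB/N-Swiss Webster crossed to C57BL/6 for a minimum of 9 generations. Antibodies to EGFP pulled the tagged ribosomes, with the RNA on them, out of tissue homogenate (translating ribosome affinity purification). The labels give neither the length of withdrawal nor which animals a library came from, so a p-value here covers library-to-library spread, part of which may be technical.

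D2 neurons are the origin of the indirect pathway through the basal ganglia, which holds movement and habit in check. The D2 receptor lowers cyclic AMP in these cells, the adenosine receptor made from Adora2a and the orphan receptor made from Gpr6 raise it, and the enkephalin precursor made from Penk supplies their opioid transmitter. Cocaine blocks the uptake of dopamine, and dorsal striatum is known for the adaptations of dopamine, glutamate and opioid signalling that follow repeated cocaine. Lypd1 encodes a small lipid-anchored protein of the Ly6 family that binds nicotinic acetylcholine receptors.

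The libraries were placed in 2 sets by the library numbers in their titles. Set B has numbers 1826 to 1833, and set A has 1797 and 2077 to 2082. Number 1797, saline replicate 2 of set A, lies nearer to the numbers of set B. The labels do not say whether it was prepared with either set. Set A holds 4 cocaine and 2 saline libraries and set B holds 5 cocaine and 3 saline libraries. Gene counts were 9753336 to 15780028 in cocaine libraries of set A, 3279457 and 14712619 in saline libraries of set A, 3613915 to 5849243 in cocaine libraries of set B and 3578445 to 4907506 in saline libraries of set B. The title of every set A library except saline replicate 2 calls it a copy of an earlier library. That replicate is also the only set A library whose table lists 32531 genes, as all set B tables do, instead of 32657. Only 13 of 16910 genes tested differed by over 2-fold between every library of the 2 table forms. Levels are given as CPM, a gene's counts per 1000000 gene counts of its library after TMM scaling.

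The libraries differed in the share of uniquely aligned reads that lay outside annotated genes. That share was 60.7%, 30.4%, 28.7% and 30.9% in the 4 cocaine libraries of set A (replicates 1 to 4), against 70.7% and 52.7% in the 2 saline libraries of set A. In set B it was 43.1%, 29.8%, 52.2%, 58.4% and 32.3% in cocaine libraries, against 36.0%, 31.9% and 46.4% in saline libraries. In set A the groups overlapped because of cocaine replicate 1 alone, and in set B they overlapped throughout. The difference between the groups was not past an exact two-sided permutation test within sets (-7.02 percentage points, p = 0.39). Set A (-24.0) and set B (5.06) pointed opposite ways, and the gap between them had an exact permutation p of 0.111. Labels were permuted within sets, so that p asks whether either set has a difference, not whether the 2 differences are equal.

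**Figure D1:**
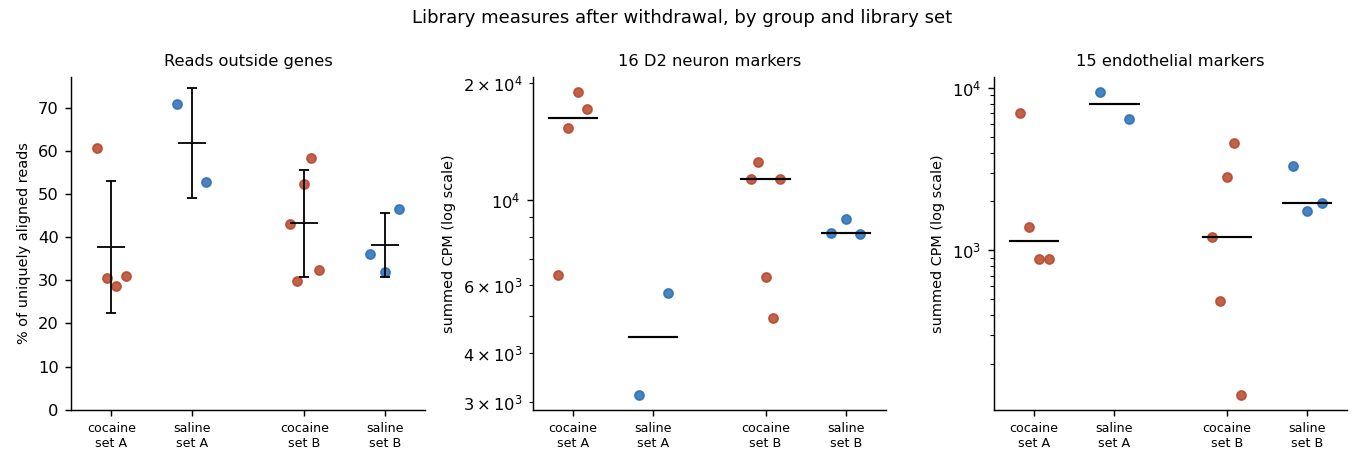
Each point is 1 library, in cocaine and saline columns for set A and then set B. Left, reads outside genes as a percentage of uniquely aligned reads, with mean and SD. Middle and right, summed CPM of 16 D2 neuron markers and of 15 endothelial markers on log axes, with the median. The 4 cocaine libraries of set A hold 6360 to 19000 CPM of D2 markers, above 3130 and 5700 CPM in the 2 saline libraries, and in set B the cocaine libraries lie on both sides of the saline ones.

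Drd2 was above its level in unpurified RNA in all 14 libraries, while Adora2a and Gpr6, also genes of D2 neurons, were not in every library. Drd2 (chromosome 9, 49340627 to 49408177 of GRCm38) was at 1310 to 7630 CPM in the 9 cocaine libraries and at 807 to 3000 CPM in the 5 saline libraries, against 361 to 537 CPM in the study's 3 libraries of unpurified input RNA. Drd1, the receptor of the other class of projection neuron (chromosome 13, 54051183 to 54055705), was at 18 to 36.0 CPM in cocaine and 15 to 63.4 CPM in saline libraries, against 237 to 322 CPM in inputs. Adora2a (chromosome 10, 75316877 to 75334784) was at 316 to 457 CPM in the inputs. It was lower in saline replicate 1 of set A (142 CPM) and cocaine replicate 4 of set B (299 CPM). Every other library of the 14 held 492 CPM or more. Gpr6 lay within its input range (11.2 to 48.9 CPM) in some libraries of each group. The inputs were 1 library of saline after withdrawal, 1 of saline without withdrawal and 1 of nonescalating cocaine without withdrawal. No input came from cocaine mice after withdrawal. Input values are plain CPM without TMM scaling, and fewer D2 cells and less RNA per cell cannot be told apart in such bulk samples. Lypd1 was not enriched by the purification. It was at 21.2 to 36.3 CPM in the inputs, above all 14 purified libraries (2.49 to 20.3 CPM).

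Most D2 neuron markers lay higher in cocaine libraries of set A and most did not in those of set B, with none called. Drd2 was at 2260, 5850, 7630 and 5220 CPM in cocaine libraries of set A, against 807 and 1760 CPM in saline libraries, and at 3050, 3540, 1580, 1310 and 2860 CPM in cocaine libraries of set B, against 2060, 2470 and 3000 CPM in saline libraries. The groups did not overlap in set A and overlapped fully in set B. Of all 16910 genes tested, every cocaine library lay above every saline library for 1895 in set A and 145 in set B. Every cocaine library lay below for 1999 in set A and 196 in set B. The log2 fold change of Drd2, cocaine over saline, was 2.03 ± 0.61 (SE) in set A, -0.02 ± 0.47 in set B and 0.71 ± 0.45 over both sets. Adora2a followed with 2.17 ± 0.60 in set A, -0.20 ± 0.45 in set B and 0.63 ± 0.46 over both. Gpr6 (chromosome 10, 41069977 to 41072285) had 2.63 ± 0.61 in set A and -0.15 ± 0.44 in set B. The set difference of Gpr6, 2.78, had an unadjusted p of 0.00091 but an adjusted p of 0.19 by edgeR's quasi-likelihood test with Benjamini-Hochberg adjustment over all genes. Rpl10a, the gene of the tagged protein (chromosome 17, 28328471 to 28331033), was at 169 to 452 CPM in cocaine libraries of set A against 62.7 and 126 CPM in saline libraries, and at 95.3 to 283 CPM in cocaine libraries of set B against 108 to 150 CPM in saline libraries. Counts of native and transgenic Rpl10a cannot be told apart.

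Penk (chromosome 4, 4133531 to 4138819) had the lowest p over both sets of the D2 markers after Lypd1. Lypd1 is on the same list and in its counts, though the purification did not enrich it. Penk was at 1780, 4010, 6380 and 6030 CPM in cocaine libraries of set A, against 967 and 1890 CPM in saline libraries. In set B it was at 5130, 5760, 2900, 2130 and 5200 CPM in cocaine libraries, against 3340, 3570 and 2400 CPM in saline libraries. In each set the highest libraries were cocaine ones, and in each set the groups overlapped. The log2 fold change was 0.91 ± 0.35 over both sets (unadjusted p = 0.0164, edgeR adjusted p = 0.749), 1.67 ± 0.51 in set A and 0.44 ± 0.40 in set B. Of all 16 D2 markers, 14 had positive values in set A (median log2 fold change 1.82), 5 in set B (median -0.11) and 13 over both sets (median 0.58), where the median of all genes tested was 0.01. In set A 12 were higher and 2 lower at an unadjusted p under 0.05 by edgeR, against 2722 and 761 of all 16910 genes tested. No D2 marker was called, and 3 were positive in both sets.

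These values changed with the libraries and covariates in the fit, and the cause was not tested. Without saline replicate 1 of set A, the median of the D2 markers in set A was 1.28, and without saline replicate 2 it was 2.43. With the share of reads outside genes as a covariate the median over both sets was 0.27. Without the 5 libraries over 50% it was 0.19. Those 5 include both saline libraries of set A, so 0.19 compares the groups in set B only (median with all set B libraries -0.11). With the mean level of non-neuronal markers as a covariate Drd2 had 0.11, Adora2a 0.10 and Penk 0.43. Of the direct-pathway genes, Drd1 had -0.28 ± 0.29 over both sets, Tac1, which encodes substance P, 0.31 ± 0.36, and Pdyn, which encodes dynorphins, -0.88 ± 0.49, and Chat, the acetylcholine-synthesizing enzyme of cholinergic interneurons, which also carry the D2 receptor, had 0.49 ± 0.54.

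**Figure D2:**
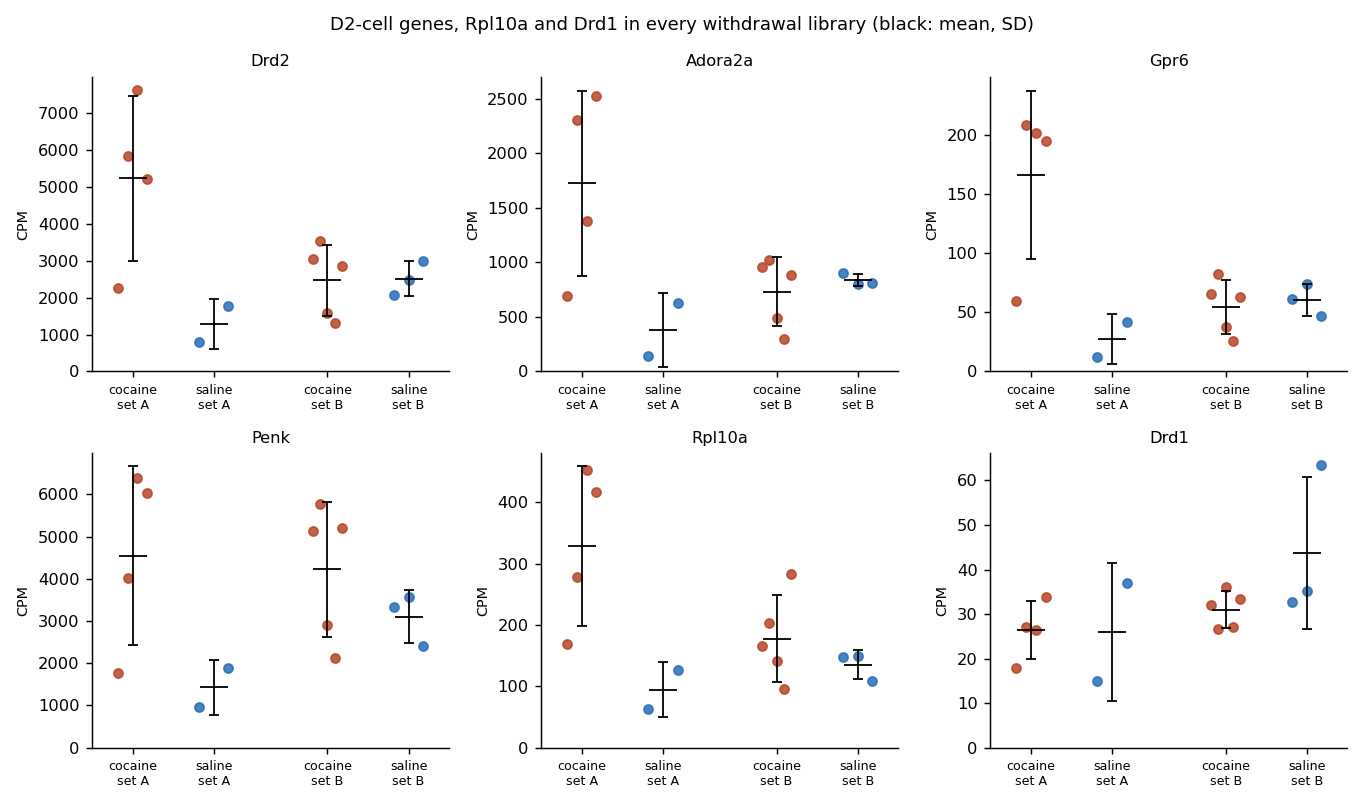
CPM of 6 genes in every withdrawal library (points), with mean and SD in black, cocaine left of saline in each set. In set A every cocaine library lies above the 2 saline libraries for Drd2, Adora2a, Gpr6 and Rpl10a. The same holds in set A for 1895 of 16910 genes tested. The groups of set B overlap for all 6 genes, and Drd1 stays between 15 and 63.4 CPM throughout.

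Across the transcriptome no gene was called between cocaine and saline libraries over both sets at an adjusted p under 0.05 (0 of 16910, 0%), with library set as a term in the fit. The smallest adjusted p by edgeR was 0.749. At an unadjusted p under 0.05 there were 882 genes (5.22%), 565 higher and 317 lower in cocaine libraries. Limma voom called 0 genes and DESeq2 1, Eps8l3, which had a mean of 0.192 CPM and no count in any saline library and which was picked out after its values were seen.

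In set A alone 3483 genes (20.6%) had an unadjusted p under 0.05, 2722 higher and 761 lower, and edgeR called 1 (0.00591%). That count rested on the tool and on single libraries. At an adjusted p under 0.1 it was 1310, DESeq2 called 1419 and voom 5232, and edgeR called 3765 without cocaine replicate 1 of set A, 834 without saline replicate 2 of set A and 4 without saline replicate 1 of set A. The 1 gene called was Adnp, a chromatin factor, at 0 to 0.538 CPM in the 4 cocaine libraries of set A, against 0.112 and 140 CPM in the 2 saline libraries. Adnp is among the 13 genes that separate the 2 table forms. Its 140 CPM stand in saline replicate 2, the library with the other form, and its 0.112 CPM in the saline library with the same form as the cocaine libraries.

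In set B alone 263 genes (1.56%) had an unadjusted p under 0.05 and none was called (0%). DESeq2 called 1, Gm5862, and voom 0. The difference between the effects of set A and set B was called for no gene (0%) by edgeR, with 2513 genes at an unadjusted p under 0.05, for 435 by DESeq2 and for 1934 by voom. By edgeR it was called for 1333 genes without cocaine replicate 1 of set A and for 212 without saline replicate 2 of set A.

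The 2 sets did not rank genes alike. Their log2 fold changes had the same sign for 48.0% of genes, and over the 11181 genes averaging 5 CPM or more they had a Pearson r of -0.03 across genes, which are not independent replicates. The median size of a log2 fold change at that level was 0.82 for set A, against 0.23 for set B. Of 34 genes with an unadjusted p under 0.05 in each set, 9 (0.0532% of genes tested) had the same direction and 25 (0.148%) opposite directions. Which of these counts was larger depended on the setting. Voom gave 196 with the same and 112 with opposite directions, edgeR gave 23 and 20 without saline replicate 2 of set B and 20 and 13 without cocaine replicate 4 of set B, and placing saline replicate 2 of set A in set B gave 29 and 26. With 1 library left out the opposite count ran from 5 to 58, lowest without saline replicate 1 and highest without cocaine replicate 1 of set A.

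**Figure D3:**
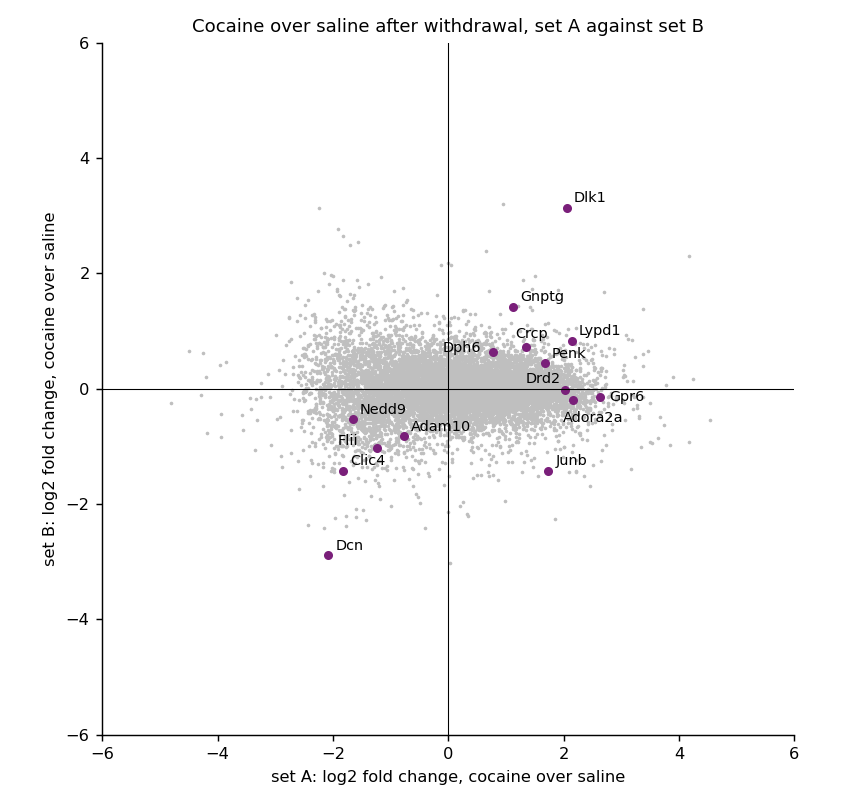
Each grey point is 1 of 11181 genes averaging 5 CPM or more, by its log2 fold change of cocaine over saline in set A (x axis) and in set B (y axis), with 5 genes past the limits of 6 left out. The cloud is wider along the set A axis, Lypd1, Crcp, Dph6, Gnptg and Dlk1 lie upper right, Flii, Adam10, Clic4 and Dcn lower left, and Junb lower right.

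Lypd1 (chromosome 1, 125867622 to 125913101, minus strand) had the lowest p over both sets of all genes named, and, among genes averaging 5 CPM or more and moving alike in both sets, the lowest larger p of the 2 sets. It was at 11.1, 15.1, 20.2 and 18 CPM in cocaine libraries of set A, against 4.65 and 2.49 CPM in saline libraries. In set B it was at 19.1, 20.3, 11.3, 10.8 and 11 CPM in cocaine libraries, against 7.60, 8.88 and 8.0 CPM in saline libraries. All 9 cocaine libraries lay above all 5 saline libraries, whichever set they came from. The log2 fold change was 1.33 ± 0.33 over both sets (unadjusted p = 0.000499, edgeR adjusted p = 0.749), 2.14 ± 0.48 in set A and 0.83 ± 0.38 in set B. It was 1.19 with the share of reads outside genes as a covariate and 1.19 with non-neuronal markers as a covariate. Without the 5 libraries over 50%, a fit that compares the groups in set B only, it was 1.01. Over 27 alternatives it ran from 1.01 to 1.46 and was called in none, the lowest adjusted p being 0.107.

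The other genes higher in each set at an unadjusted p under 0.05 were Crcp and Dph6. Crcp (chromosome 5, 130029290 to 130060789), which encodes a protein needed for signalling by the receptor of calcitonin gene-related peptide and a subunit of RNA polymerase III, was at 12.9, 24.4, 19.5 and 21.8 CPM in cocaine libraries of set A, against 7.17 and 8.23 CPM in saline libraries. In set B it was at 30.9, 32.7, 29.0, 16.4 and 22.1 CPM in cocaine libraries, against 17.9, 19.6 and 10.3 CPM in saline libraries. There was no overlap in set A and 1 cocaine library within the saline range in set B. Its log2 fold change was 0.97 ± 0.27. Dph6 (chromosome 2, 114516416 to 114654964), an enzyme of the diphthamide modification of translation elongation factor 2, was at 25.6 to 72.2 CPM in cocaine and 28.9 and 31.3 CPM in saline libraries of set A, and at 68.1 to 125 CPM in cocaine and 54.3 to 65.3 CPM in saline libraries of set B, with a log2 fold change of 0.70 ± 0.23. The groups overlapped in set A through cocaine replicate 1 and did not overlap in set B.

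Of the 6 genes lower in each set by the same measure, 5 had a mean under 1 CPM and the other was Flii. Flii (chromosome 11, 60714123 to 60727263), an actin-binding protein of the gelsolin family, was at 152, 27.6, 50.7 and 44.2 CPM in cocaine libraries of set A, against 160 and 162 CPM in saline libraries. In set B it was at 43.2, 28.1, 43.5, 51.8 and 14.2 CPM in cocaine libraries, against 76.0, 50.4 and 94.6 CPM in saline libraries. Only cocaine replicate 1 of set A came near the saline level in set A, and in set B the highest cocaine library lay just above the lowest saline library. The log2 fold change was -1.11 ± 0.36.

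Fos, the immediate early transcription factor whose messenger RNA marks recent activity (chromosome 12, 85473890 to 85477273), was scarce and lower in every cocaine library. It was at 1.17, 0.0746, 0.847 and 0.269 CPM in cocaine libraries of set A, against 3.42 and 4.24 CPM in saline libraries. In set B it was at 0, 1.08, 0, 0.205 and 0 CPM in cocaine libraries, against 1.64, 2.07 and 3.43 CPM in saline libraries. No cocaine library reached the lowest saline library. The counts behind these levels were 32 over the 9 cocaine libraries and 108 over the 5 saline libraries. Of the 108, saline replicate 1 of set A held 61. The log2 fold change was -2.90 ± 1.09 over both sets (unadjusted p = 0.0139, edgeR adjusted p = 0.749), -2.68 in set A and -3.07 in set B, and it ran from -3.83 to -2.64 over the alternatives.

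Counting by overlap alone, 5 genes (0.0296%) had every cocaine library above every saline library in each set, and 24 (0.142%) had every cocaine library below. Of the 840 arrangements of labels within sets, 1 gives each kind of separation. The counts were not tested against that share. Beside Lypd1, the first count holds 1 other gene with a full symbol, Magee2, a melanoma antigen family member, at 8.61 to 55.1 CPM in cocaine against 2.80 and 7.24 CPM in saline libraries of set A and 20.8 to 38.1 against 8.0 to 18.8 CPM in set B. Of the 24 lower genes, 11 had a mean of at least 5 CPM, among them Tbc1d2b. Tbc1d2b, a Rab regulator, was at 39.1 to 50.6 CPM in cocaine against 64.9 and 67.5 CPM in saline libraries of set A and 21.5 to 40.7 against 42.1 to 47.4 CPM in set B. Serpinf1, a secreted antiangiogenic factor with a mean of 4.59 CPM, was at 1.80 to 6.27 against 12.5 and 15.8 CPM in set A and 0 to 2.0 against 2.07 to 10.3 CPM in set B. Magee2, Tbc1d2b and Serpinf1 were picked out after their values were seen.

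**Figure D4:**
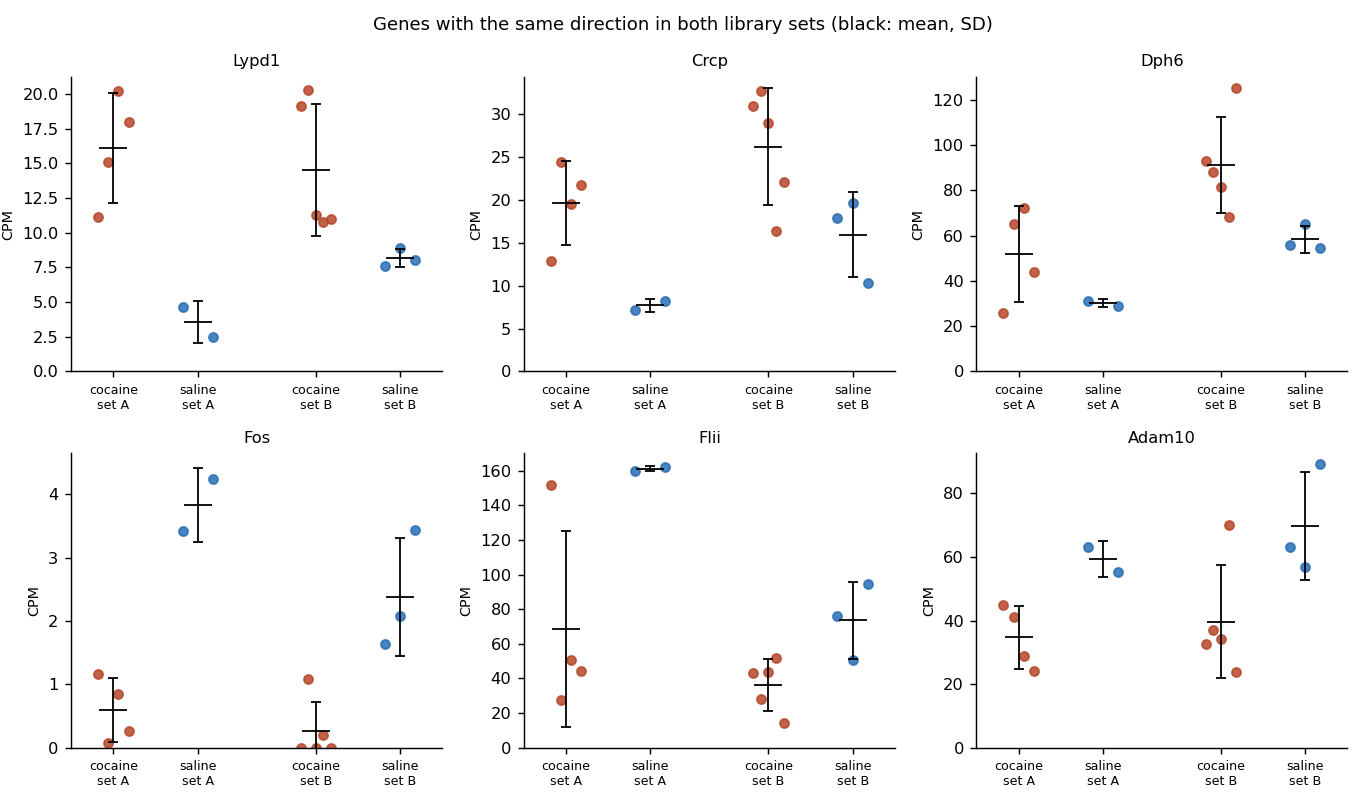
CPM of Lypd1, Crcp, Dph6, Fos, Flii and Adam10 in every withdrawal library (points), with mean and SD in black, cocaine left of saline in each set. Lypd1 shows 10.8 to 20.3 CPM in all 9 cocaine libraries against 2.49 to 8.88 CPM in all 5 saline libraries, and Fos shows at most 1.17 CPM in cocaine libraries against at least 1.64 CPM in saline libraries.

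The genes with the lowest unadjusted p over both sets, beyond those above, were all uncalled. Among the higher ones, Dcx, a microtubule protein of migrating and immature neurons, had 1.34 ± 0.42, Cdh11, a cell adhesion cadherin, 0.85 ± 0.26, Spred2, an inhibitor of Ras signalling, 0.93 ± 0.30, and Tmem14a 1.11 ± 0.35. Gnptg, a subunit of the enzyme that tags lysosomal proteins, had 1.29 ± 0.40, with 10.9 to 39.4 CPM in cocaine against 10 and 11.2 CPM in saline libraries of set A, where the groups overlapped, and 7.36 to 27.9 against 2.0 to 6.99 CPM in set B, where they did not. Dlk1, a Notch-related ligand, had 2.70 ± 0.75, and 1 cocaine library (set B replicate 5) held 193 CPM where the other 13 libraries held 1.12 to 20.2 CPM. Agreement between sets added Anapc16, a subunit of the anaphase-promoting complex (0.75 ± 0.24), Tmem63c (1.34 ± 0.44) and Prr16 (2.08 ± 0.73).

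Among the lower ones, Adam10, the main alpha-secretase of the amyloid precursor protein and of Notch (chromosome 9, 70678997 to 70780229), was at 44.9, 41.1, 28.8 and 24.2 CPM in cocaine libraries of set A, against 63.3 and 55.4 CPM in saline libraries. In set B it was at 32.7, 37.1, 34.2, 70.2 and 23.8 CPM in cocaine libraries, against 63.1, 57.0 and 89.2 CPM in saline libraries. Of the 9 cocaine libraries 8 lay below all saline libraries. Its log2 fold change was -0.80 ± 0.26 (-0.77 within set A, -0.82 within set B). Wnk1, a kinase that controls chloride transport, had -0.47 ± 0.16, Hip1r, a clathrin and actin adaptor, -0.92 ± 0.29, Pcdh19, a protocadherin, -0.99 ± 0.33, Nedd9, a scaffold of focal adhesions, -1.04 ± 0.35, and N4bp2l2 -0.73 ± 0.24. Yap1, the coactivator of the Hippo pathway (-1.28 ± 0.45), Actn4, an actin crosslinker (-0.88 ± 0.34), Clic4 (-1.59 ± 0.62), Sema7a, a membrane-anchored semaphorin (-0.57 ± 0.22), and Ccdc91 (-0.69 ± 0.26) joined them by agreement between sets. With non-neuronal markers as a covariate Yap1, Actn4 and Clic4 were smaller in size, at -0.84, -0.36 and -0.75.

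Gene lists of neuronal signalling shared a profile, with medians well above 0 in set A and near 0 in set B. All 29 synaptic vesicle genes were positive over both sets (median log2 fold change 0.57), with a median of 1.67 in set A and 0.00 in set B. Among them Snap25, a membrane fusion protein, had 0.84 ± 0.34, Sv2b 0.81 ± 0.29 and Pclo 0.92 ± 0.33. Of 22 AMPA receptor genes 21 were positive over both sets (median 0.63, set A 1.87, set B 0.02). Cacng3, an auxiliary AMPA receptor subunit, was at 59.5, 153, 184 and 171 CPM in cocaine libraries of set A, against 14 and 37.7 CPM in saline libraries, and at 156, 126, 78.5, 72.6 and 122 CPM in cocaine libraries of set B, against 84.7, 97.1 and 52.9 CPM in saline libraries. The groups did not overlap in set A and did in set B. Its log2 fold change was 1.21 ± 0.40. The same shape held for 34 potassium channels (medians 1.73 in set A and -0.01 in set B), 23 postsynaptic density genes (1.56 and 0.00), 20 GABA receptor and synthesis genes (1.51 and -0.03) and 32 genes of the dopamine signalling cascade (1.33 and -0.03). With reads outside genes as a covariate, the medians over both sets were 0.34 for synaptic vesicles, 0.37 for AMPA receptors and 0.29 for potassium channels. Without the 5 libraries over 50%, a fit that compares the groups in set B only, the medians were 0.19, 0.34 and 0.22. Positive members then numbered 22 of 29, 19 of 22 and 28 of 34. No member of any of the 40 lists was called over both sets.

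Of the list members with the lowest p, some had the same sign in both sets. Htr2a, a serotonin receptor, had 0.81 in set A and 0.82 in set B (0.82 ± 0.31 over both), but its groups overlapped in each set. Gnai1, an inhibitory G protein subunit downstream of the D2 receptor, had 1.43 and 0.55 (0.90 ± 0.31), while its relative Gnai2 had -0.63 and -0.67 (-0.65 ± 0.29). Oprm1, the mu opioid receptor, had 1.24 and 0.44 (0.76 ± 0.33). Mt2, a metallothionein of the stress list, had 0.71 and 1.69 (1.25 ± 0.44), with 32.9 CPM in cocaine replicate 4 of set B and 5.89 to 15.5 CPM in the other 8 cocaine libraries. Uqcrc1, a subunit of respiratory complex III, had 2.14 ± 0.87, but cocaine replicate 2 of set B held 2410 CPM and the other 8 cocaine libraries 32.1 to 220 CPM, against 27.4 to 86.1 CPM in saline libraries.

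**Figure D5:**
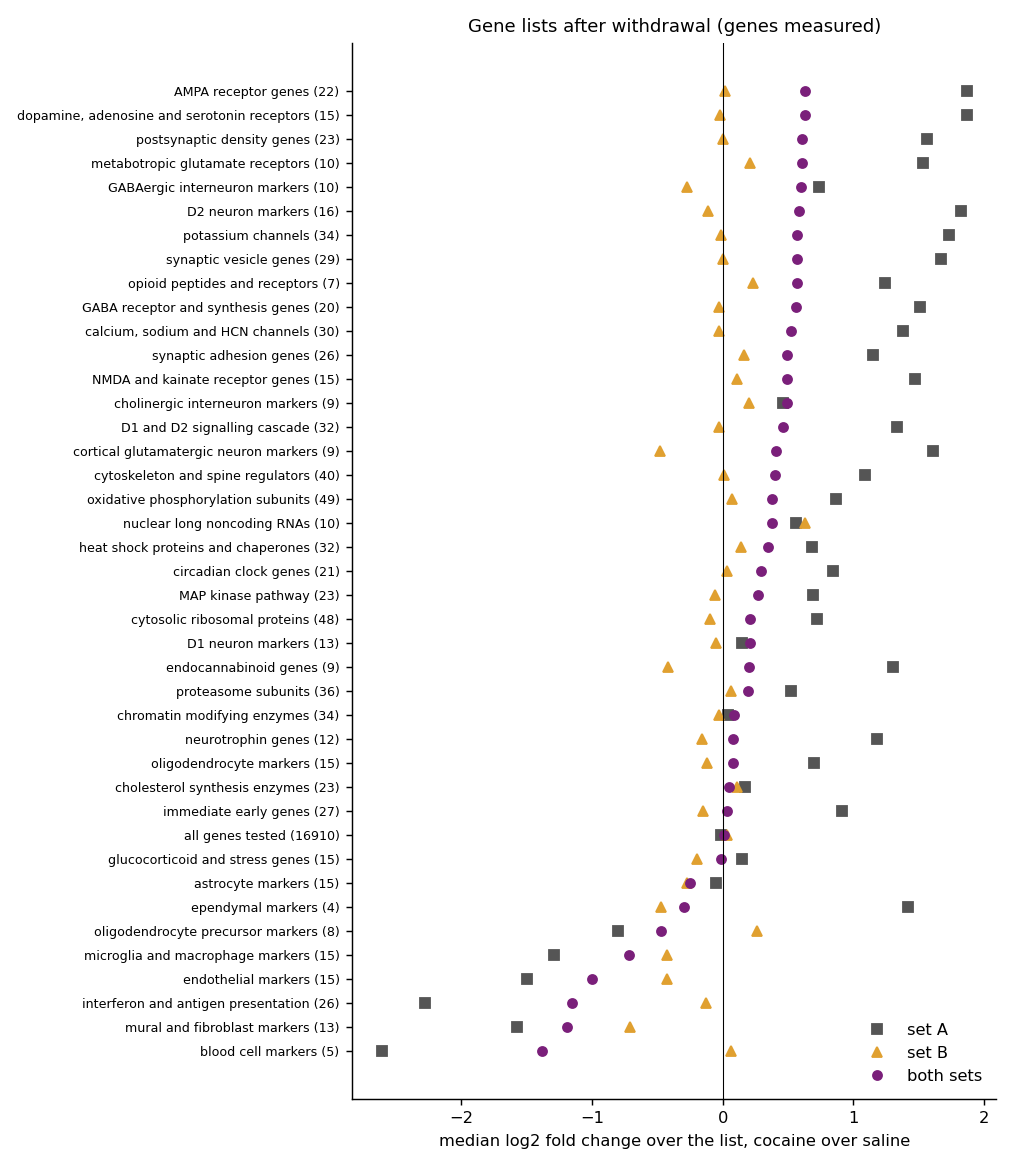
Median log2 fold change, cocaine over saline, of 40 gene lists and of all genes tested (genes measured in parentheses), in set A (squares), set B (triangles) and both sets (circles). Synaptic, channel and D2 neuron lists lie near 1 to 2 in set A and near 0 in set B, while endothelial (-1.50 and -0.43) and mural (-1.57 and -0.71) markers lie below 0 in both.

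Vessel markers had negative values in both sets, with wide overlap between libraries, no member called and neither summed level past its test. All 13 mural and fibroblast markers were negative in each set, where 22.8% of all genes were negative in both. Their median was -1.19 over both sets, -1.57 in set A and -0.71 in set B. Their summed level was 372 to 2850 CPM in cocaine and 1790 to 4790 CPM in saline libraries of set A, and 50 to 1170 CPM in cocaine and 522 to 1380 CPM in saline libraries of set B. In each set the lowest libraries were cocaine ones and the ranges overlapped. The log2 difference of that sum, -1.70, was not past the exact two-sided permutation test within sets (p = 0.0524, adjusted p = 0.326 over 19 library measures, 840 arrangements). Dcn, the matrix proteoglycan decorin (chromosome 10, 97479609 to 97518143), was at 0.716 to 4.75 CPM in cocaine and 3.30 and 13.2 CPM in saline libraries of set A. In set B it was at 0 to 5.32 CPM in cocaine and 5.37 to 24.3 CPM in saline libraries, without overlap. Its log2 fold change was -2.56 ± 0.87. Myh11, smooth muscle myosin, had -1.65 ± 0.90 and Acta2, smooth muscle actin, -1.97 ± 1.15.

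Of the endothelial markers all 15 were negative over both sets (median -1.0), and 12 of them in each set. Their sum was 881 to 7040 CPM in cocaine and 6440 to 9390 CPM in saline libraries of set A and 129 to 4590 CPM in cocaine and 1740 to 3330 CPM in saline libraries of set B. The log2 difference of that sum was -1.61 (exact two-sided permutation within sets, p = 0.0798, adjusted p = 0.326). Vwf, von Willebrand factor, was at 592, 83.3, 60.9 and 283 CPM in cocaine libraries of set A, against 1160 and 636 CPM in saline libraries, and at 64.8, 23.2, 127, 214 and 4.32 CPM in cocaine libraries of set B, against 284, 89.6 and 147 CPM in saline libraries. The saline libraries were higher without exception in set A only. The inputs held 89.3 to 779 CPM of these markers, less than most purified libraries. With reads outside genes as a covariate the medians were -1.18 for endothelial and -1.14 for mural markers. Without the 5 libraries over 50%, a fit that compares the groups in set B only, they were -2.07 and -2.11. The 3 highest sums of both lists stood in cocaine replicate 1 and the 2 saline libraries of set A, the set A libraries with over 50% of reads outside genes.

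Interferon and antigen presentation genes had more negative values in set A than in set B, but the difference between sets was not past its test and no member was called. All 26 interferon and antigen presentation genes were negative over both sets (median -1.15) and in set A (median -2.28), and 16 in set B (median -0.13). The log2 difference of their summed CPM was -1.46 (exact two-sided permutation within sets, p = 0.0714, adjusted p = 0.326). For the gap between the set A and set B differences the permutation p was 0.273 (adjusted p = 0.566). That p asks whether either set has a difference, not whether the 2 differences are equal. Psmb8, an immunoproteasome subunit, was at 0.424 to 3.59 CPM in cocaine libraries of set A against 27.4 and 20 CPM in saline libraries, and at 0.18 to 3.07 CPM in cocaine libraries of set B against 0.826 to 6.17 CPM in saline libraries. Nlrc5, the activator of class I histocompatibility genes, reached 250 CPM in saline replicate 1 of set A and at most 30.7 CPM in the other 13 libraries. Without that library the list median in set A was -1.23. Microglial markers summed to 29.2 to 70.8 CPM in cocaine and 70.1 to 92.2 CPM in saline libraries of set A, and to 9.61 to 49.7 CPM in cocaine and 32.9 to 54.9 CPM in saline libraries of set B (median of 15 genes -0.72). C1qa, a defining microglial gene, did not pass the filter on low counts. Median log2 fold changes over both sets were -0.25 for astrocyte, 0.08 for oligodendrocyte and -0.47 for oligodendrocyte precursor markers. Without the 5 libraries over 50%, which left the comparison to set B, they were -1.05, -0.28 and -1.11. The microglial median there was -2.51. The log2 differences of the summed levels were -0.514 for astrocyte, 0.0701 for oligodendrocyte, -0.89 for precursor and -0.627 for microglial markers, with exact permutation p of 0.0857, 0.835, 0.0619 and 0.16 within sets. Mobp, a myelin gene (1.39 ± 0.61), reached 174 CPM in cocaine replicate 1 of set B against 5.76 to 53.4 CPM in the other 8 cocaine libraries and 6.81 to 26.6 CPM in saline libraries.

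Of 27 immediate early genes measured, 17 were positive in set A and 9 in set B, and 9 had the same sign in both sets. They had a median log2 fold change of 0.91 in set A, -0.15 in set B and 0.03 over both. Egr1, a zinc finger factor, was at 574, 2060, 2010 and 1710 CPM in cocaine libraries of set A, against 232 and 324 CPM in saline libraries, and at 724, 894, 440, 460 and 674 CPM in cocaine libraries of set B, against 386, 655 and 673 CPM in saline libraries. The groups did not overlap in set A and overlapped in set B. Junb, an AP-1 subunit like Fos, was past an unadjusted p of 0.05 in each set with opposite signs, 1.73 ± 0.69 in set A and -1.42 ± 0.54 in set B. Arc, a regulator of AMPA receptor uptake, had 2.74 ± 0.80 and -0.97 ± 0.58. The difference between sets had an adjusted p of 0.19 by edgeR for each of Egr1, Junb and Arc. Junb and Arc were picked out after their values were seen. Bdnf, a neurotrophin, had 38 counts in all over the 14 libraries and did not pass the filter.

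Of 32 heat shock and chaperone genes 24 were positive in both sets, where 25.2% of all genes were, with medians of 0.68 in set A and 0.14 in set B. Cct6a, a subunit of the cytosolic chaperonin, had 0.59 ± 0.21 and Hsph1 0.69 ± 0.29. Oxidative phosphorylation subunits had 49 of 49 members positive in set A and 25 in set B (medians 0.87 and 0.07), and cytosolic ribosomal proteins 44 of 48 and 16 (0.72 and -0.10). Nuclear long noncoding RNAs were positive for 6 of 10 in set A and 10 of 10 in set B (0.56 and 0.63), with Meg3 at 0.73 ± 0.38 and Miat at 0.94 ± 0.44. Clock genes had 16 of 21 positive in set A and 11 in set B, among them Nr1d1, a nuclear receptor of the clock, at 0.57 ± 0.21. Chromatin modifying enzymes had medians of 0.04 and -0.03, with the deacetylase Sirt1 at -0.75 ± 0.32. None of these genes was called.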

How the data were processed

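The 14 libraries of the 2 withdrawal groups were analysed in 1 fit with the other 9 immunopurified libraries. The members, gene lists and settings were chosen with earlier results of these data known. The authors deposited whole-number counts per gene symbol, 1 table per library, with no normalization. Alignment was by STAR 2.0.0e on build mm10 and counting by HTSeq, both per the submitters' processing notes. Neither these nor the labels state an annotation release or strand setting, so overlapping and antisense genes cannot be told apart. Joining the 2 table forms by shared symbol (31735) or old and current symbol (244) gave 31979 genes, holding 99.53% to 99.94% of gene counts of the 14 libraries. Rows that name no gene were kept out of library sizes and tests and used only for the share of reads outside genes. None of 46 same-group pairs of tables was identical. Counts were tested in R 4.3.3 with edgeR 4.0.16 (TMM, filterByExpr, quasi-likelihood F test) with group and set as terms (17 residual degrees of freedom), and with a term per group and set (16) for set A, set B and their difference. Genes were called at a Benjamini-Hochberg adjusted p under 0.05 over all 16910. Fold changes are log2 with SE, and input CPM are unscaled. Library measures were compared by exact two-sided permutation within sets. Alternatives were RLE factors, no filter, DESeq2 1.42.0, limma 3.58.1 voom with library weights, other sets, libraries, covariates and scales, and each library left out. Named genes are the 8 per direction with the lowest p and the 8 with the lowest larger p of the 2 sets (averaging 5 CPM or more, same sign in both sets, no clone name), up to 3 members per list by p, and 12 fixed genes. Coordinates are from GENCODE M21 (GRCm38).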

Additional observations from a re-analysis of the deposited data

Results flagged for a closer look

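Over 106 groups tested for a sample far from the others, chance flags about 1 in 20 groups, and 8 values were flagged. Among the 9 cocaine libraries, Dlk1 was at 193 CPM in set B replicate 5, where the other 8 were at 1.97 to 20.2 CPM. In set A replicate 1, the cocaine library with 60.7% of reads outside genes, Dcx was at 2.96 CPM (others 12.4 to 45.6 CPM) and Drd1 at 18 CPM (others 26.5 to 36.0 CPM). The log2 summed CPM of cholinergic interneuron markers was 2.78 in cocaine set A replicate 2 (others 5.48 to 6.28), and that of blood cell markers was -2.06 in cocaine set B replicate 5 (others 1.77 to 4.61).

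Among the 5 saline libraries, Adam10 was at 89.2 CPM in set B replicate 3, where the others were at 55.4 to 63.3 CPM. Saline set A replicate 1 had Adora2a at 142 CPM (others 623 to 897 CPM) and 14.7 times 1000000 gene counts (14712619, others 3279457 to 4907506).

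For 2 library measures the gap between the set A and set B differences had an unadjusted exact permutation p under 0.05. Neither was past that threshold after adjustment. Labels were permuted within sets, so the test asks whether either set has a difference, not whether the 2 differences are equal. Rn45s, the 45S ribosomal RNA precursor, took 2.87 percentage points more of gene counts in cocaine libraries of set A and 4.28 fewer in those of set B (exact permutation p = 0.0179 within set B), a difference of 7.16 (exact permutation p = 0.00357, adjusted p = 0.0678 over 19 measures). Cortical glutamatergic markers had a log2 summed CPM higher by 2.18 in cocaine libraries of set A and lower in those of set B (-0.596), a difference of 2.77 (exact permutation p = 0.00714, adjusted p = 0.0678).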

How the results depend on the processing

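No alternative called a gene over both sets except DESeq2, which called 1. Called genes in set A numbered 1 as reported, 398 without the low-count filter, 0 with the 14 withdrawal libraries alone, 1419 by DESeq2, 5232 by voom and 0 to 3765 with 1 library left out. DESeq2 called 1 gene in set B. A set difference was called for 435 genes by DESeq2, 1934 by voom and 0 to 1333 with 1 library left out. Genes past an unadjusted p of 0.05 in both sets with the same direction numbered 9 as reported, 196 by voom and 2 to 39 with 1 library left out. Chosen after seeing the data, placing saline replicate 2 of set A in set B gave 697 genes called in set A, 57 set differences and 29 genes past 0.05 alike in both sets. The cause was not tested. The median of all genes in set A shifted to -0.23 with RLE factors and to 0.24 with counts scaled to all uniquely aligned reads, against -0.01. Same-numbered libraries had residual correlations of 0.42 and 0.131 in set A and 0.012, 0.154 and -0.006 in set B and were not taken to pair libraries. A replicate block over the 14 libraries called 0 genes, with 1152 at an unadjusted p under 0.05. Of the 147 named genes 141 kept their sign over both sets under all 27 alternatives, and none was called over both sets under any. Among these alternatives, the fit without libraries over 50% of reads outside genes holds no saline library of set A. It compares the groups in set B only. Set A rests on 2 saline libraries, so a single library can move its values.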
